A study of Mus musculus with 16 samples.

Results

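Interferon-induced genes and GTPases were examined in whole colon tissue of mice, with and without colitis and with and without Smarcad1 in the intestinal epithelium. The set held 81 of the 5171 distinct genes listed in the deposited tables, chosen by name only: guanylate-binding proteins (Gbp), immunity-related GTPases (Irgm1, Irgm2, Igtp, Iigp1, Tgtp1, Tgtp2 and Gm4841), the Ifit, Ifitm, Ifi and Oas families, the nucleic acid sensors Ddx58, Ifih1, Dhx58 and Zbp1, single antiviral genes such as Isg15, Usp18 and Mx1, and the Irf, Stat, Slfn and Parp families. No expression value entered the name rule, although it was set with earlier results of these data known. A gene could be a member only if it had passed the authors' threshold in at least 1 comparison. Genes of these families outside the tables were not analysed here.

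Smarcad1 is a chromatin remodelling ATPase. KO mice carried floxed Smarcad1 alleles and Cre under the villin promoter, which is active in the intestinal epithelium, so leukocytes, muscle and vessels of the colon kept the gene, and whole tissue was sampled. WT mice were wild type. All mice were C57BL/6, and all groups, controls included, had been given an enriched microbiota by bedding transfer and shared ventilation with donor females. Colitis was induced with dextran sulphate sodium (DSS), a polymer that injures the colon lining, which was dissolved at 1% in drinking water and given over 15 days, whereas control mice received no DSS. Each genotype gave 3 libraries from control mice and 5 from mice with colitis. The age of the mice is not given in the labels.

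Interferons are cytokines that bind cell surface receptors and, through Janus kinases, activate STAT transcription factors. Type I and type III interferons drive a complex that contains STAT2 and IRF9 to the interferon-stimulated response element (ISRE), and interferon gamma, made mainly by T and NK cells, drives STAT dimers to the gamma-activated sequence (GAS). Target genes include RNA sensors, inhibitors of viral entry and translation, and the GTPase families, which coat and break vacuoles that hold bacteria or parasites. In the gut, type III interferon acts mainly on epithelial cells, and interferon gamma acts on epithelium and macrophages alike.

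Values below are the authors' means, over the libraries of a group, of log2 RPM, the reads of a gene scaled to the size of its library, which are not corrected for gene length. A change is the difference between 2 such means, so that 1 stands for a doubling of the geometric mean level. Values of single libraries were not used, hence no value carries an SD or a test and no difference below has been set against the spread between mice. Libraries of control tissue held, as a geometric mean, 10.1 M reads for WT and 9.77 M for KO, and libraries of colitis 8.005 M for WT and 9.87 M for KO. A level of 3 reads per library lay at −1.75 log2 RPM (WT) and −1.70 (KO) in control tissue and at −1.42 (WT) and −1.72 (KO) in colitis, and means at or under it are called background here. All 81 members were kept, and 4 of them (Gbp10, Gm4841, Ifi214 and Oas1d) had such a mean in at least 1 group. The targeted gene Smarcad1 was lower in KO in both states, with 5.77 log2 RPM for WT against 4.59 for KO in control tissue and 5.68 against 4.55 in colitis.

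The promoters of the set were read first, because the 2 interferon response elements are the feature that many members share besides their names. RefSeq promoter windows on GRCm38.p6, from 250 bases before to 50 bases after a start site, were matched for 59 of the 81 members and gave 69 promoters. The core of the ISRE, the letters TTTC, then any 2 bases, then TTTC, on either strand, was found in 37 of the 69 promoters (53.6%), against 3.44% of all 32851 promoters of the table and 4.76% of the 4790 promoters of genes in the deposited tables. The letters TTCNNNGAA, the core of the GAS, read the same way on both strands and were found in 15 of the 69 (21.7%), against 8.30% and 7.60%. Both cores occurred in 9 promoters of members (13.0%), against 0.454% of all promoters. A match is a run of letters and not a measured binding site.

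The promoters of 4 immunity-related GTPases hold both cores at the same spacing, and these stretches are shown because the 4 promoters share this layout nearly letter for letter. They lie on chromosome 11 of GRCm38.p6, on the strand named, and are written 5′ to 3′ along that strand. Capitals mark the GAS core and, after it, the ISRE core, which is read here from the opposite strand as GAAA, any 2 bases and GAAA. In Igtp the stretch is chr11:58199501-58199541 on the plus strand, in Irgm2 chr11:58214892-58214932 on the plus strand, in Tgtp1 chr11:48992304-48992344 on the minus strand and in Tgtp2 chr11:49064263-49064303 on the minus strand. 
Igtp: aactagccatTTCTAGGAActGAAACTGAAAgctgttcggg
Irgm2: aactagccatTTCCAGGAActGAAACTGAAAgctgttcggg
Tgtp1: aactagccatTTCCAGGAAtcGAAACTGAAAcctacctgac
Tgtp2: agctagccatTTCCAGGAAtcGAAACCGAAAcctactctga

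In each of these 4 promoters the ISRE core begins 11 bases after the first base of the GAS core. Counting −1 as the base before the start site, the stretch begins at −55 in Igtp, −85 in Irgm2, −98 in Tgtp1 and −91 in Tgtp2. Irgm1 holds overlapping copies of the ISRE core and no GAS core, at chr11:48871425-48871460 on the minus strand. Of the 7 immunity-related GTPases listed at the start, 5 had a matched promoter, and all 5 promoters hold the ISRE core and 4 the GAS core. Ifi47, a GTPase of the same family that is counted here by its name among the Ifi genes, holds neither core in its window.
Irgm1: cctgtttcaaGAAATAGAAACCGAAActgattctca

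The next stretches stand for other families and show the ISRE core in either orientation, with capitals as before. Ifit1 (chr19:34640775-34640823, plus strand) holds it in 2 places, Isg15 (chr4:156200865-156200906, minus strand) holds it in overlapping copies, and Gbp2 (chr3:142620594-142620623, plus strand) holds it once. Irf1 (chr11:53769914-53769942, plus strand), a transcription factor gene, holds the GAS core and no ISRE core in its window.
Ifit1: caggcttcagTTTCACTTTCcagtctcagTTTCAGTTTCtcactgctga
Isg15: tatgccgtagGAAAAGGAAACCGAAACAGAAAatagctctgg
Gbp2: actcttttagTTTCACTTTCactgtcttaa
Irf1: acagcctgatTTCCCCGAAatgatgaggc

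**Figure D1:**
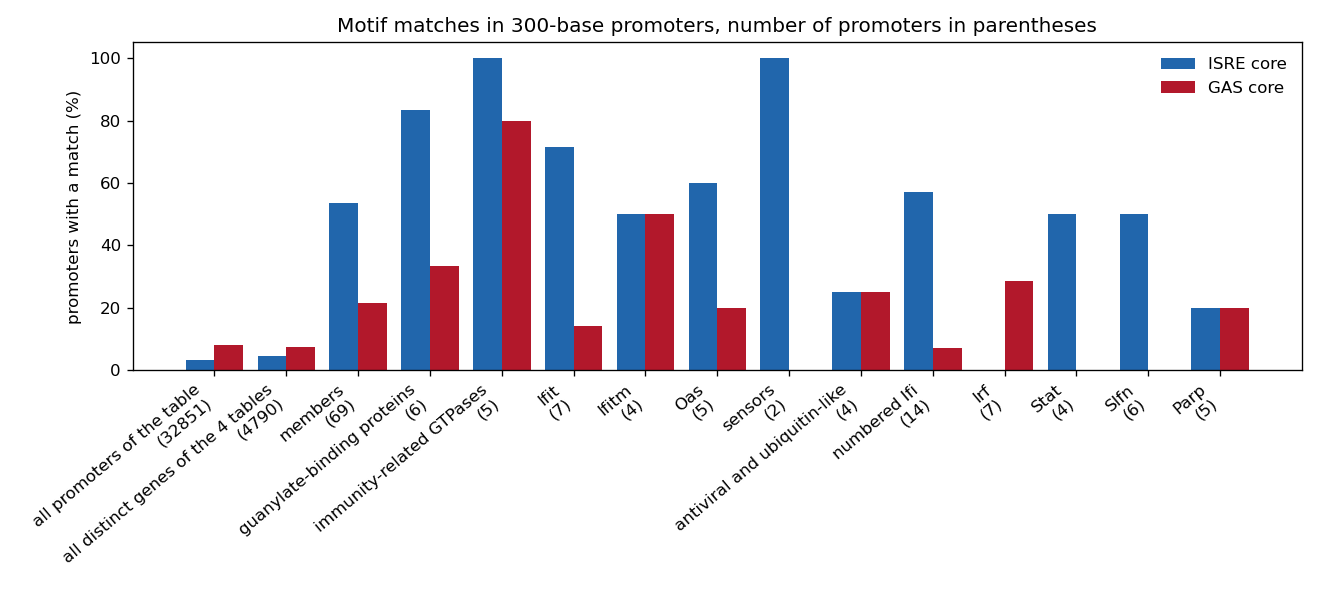
Share of promoters that hold the ISRE core (blue bars) or the GAS core (red bars), in percent of promoters (vertical axis), for all promoters of the RefSeq table, all genes of the deposited tables, the members and each role group, with the number of promoters in parentheses. The ISRE core bar of the members stands at 53.6% against 3.44% for all promoters, and role groups with few promoters give coarse shares.

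The first comparison asked how the set stood in colitis against control in WT colon. The mean was higher in colitis for 79 of the 81 members and lower for 2. The level was higher by 1 or more on the log2 scale for 54 members, whereas 18.4% of all listed genes passed the same limit, and lower by 1 or more for 1 member, Oas1d, whereas 13.0% of all listed genes did. The median change was 1.56, against 0.13 over all listed genes, and the range ran from −1.70 in Oas1d to 6.61 in Gm4841, both of which rest on a mean at background. With such means raised to the level of 3 reads, the median stayed at 1.56 and the same genes stood at −1.07 and 5.59. The deposited table of this comparison holds 69 of the members (85.2%) and 63.1% of all listed genes. As bulk tissue was sequenced, a gain of cells that express these genes and more RNA per cell cannot be told apart.

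KO colon was alike in these counts. The mean was again higher in colitis for 79 members and lower for 2, and no member had opposite signs in WT and KO. The level was higher by 1 or more for 53 members, against 15.9% of all listed genes, and lower by 1 or more for 1, against 12.6%. The median change was 1.52, against 0.19 over all listed genes, with a range from −2.35 to 6.13, and with low means raised to 3 reads the median was 1.44. The deposited table of colitis in KO holds 76 of the members (93.8%), against 78.4% of all listed genes. Both colitis tables hold 64 of the members and 42.2% of all listed genes. Summed over the members, the level in WT went from 3960 RPM in control to 8612 in colitis, and in KO from 4051 to 8233.

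**Figure D2:**
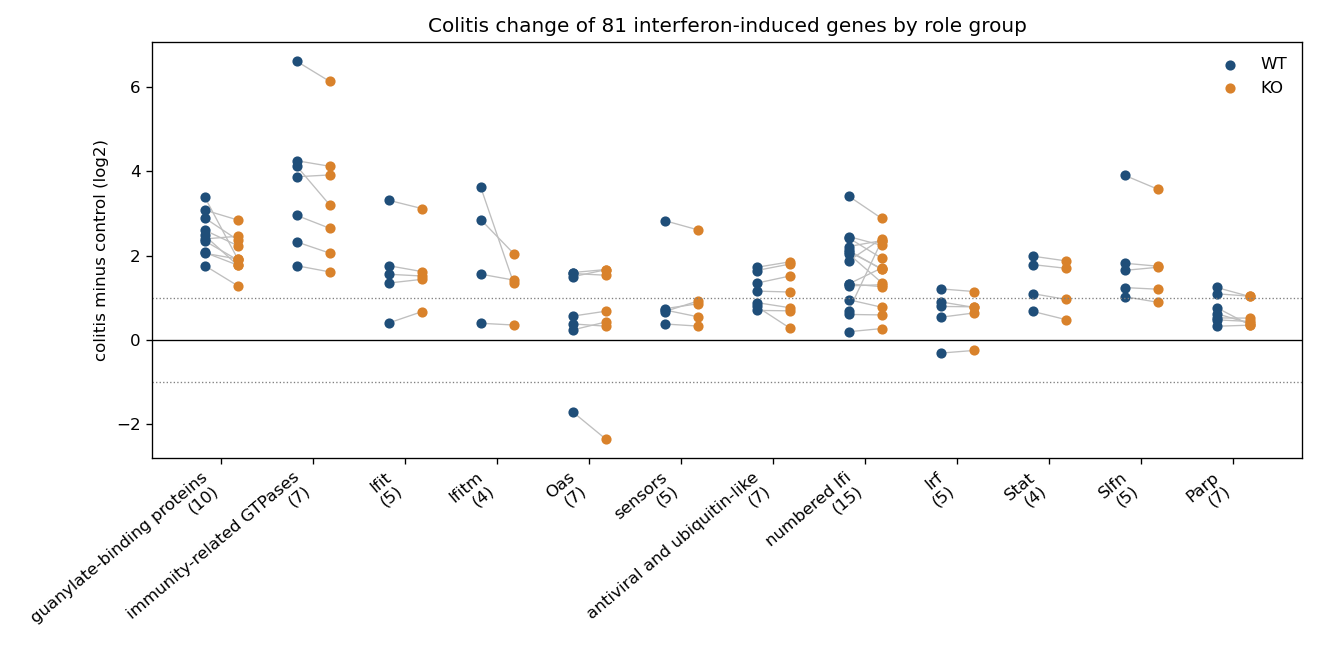
Change of each member in colitis against control (log2, vertical axis) by role group, with a WT point and a KO point joined for each gene, the number of genes in parentheses and dotted lines at 1 and −1. The immunity-related GTPases have the highest medians, 3.87 in WT and 3.20 in KO, and 1 Oas gene lies far below 0.

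The immunity-related GTPases are small inducible GTPases that gather on the vacuoles of intracellular parasites and bacteria. All 7 were higher in colitis by more than 1.5 on the log2 scale in both genotypes, with a median change of 3.87 in WT and 3.20 in KO. Gm4841, a predicted gene of this family, was at background in both control groups (−2.77 log2 RPM in WT and −2.48 in KO) and reached 3.84 in WT colitis and 3.66 in KO colitis. Against the level of 3 reads its colitis level was at least 48.3-fold higher in WT and at least 41.1-fold higher in KO.

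Iigp1, an effector that coats the parasite vacuole, had means of 4.03 log2 RPM in WT control, 3.99 in KO control, 8.28 in WT colitis and 8.11 in KO colitis, a change of 4.25 in WT and 4.12 in KO. Tgtp1 and Tgtp2, near-identical neighbouring effector genes whose promoters are shown above, went in WT from 0.65 to 4.52 and from 0.23 to 4.36. In KO they went from 0.61 to 4.53 and from 1.04 to 4.24. Of the windows of 100 bases, 73.1% in Tgtp1 transcripts and 76.8% in Tgtp2 recur in other genes, chiefly each other. Only unique reads were kept, so reads there may have been left out and the levels of this pair may be too low.

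Igtp, Irgm2 and Irgm1 belong to the regulatory branch of the family, which guards the cell's own membranes against the effectors. Igtp was at 4.51 log2 RPM in WT control, 4.70 in KO control, 7.47 in WT colitis and 7.35 in KO colitis. Irgm2 was at 5.58, 5.72, 7.91 and 7.78 in the same order, and Irgm1 at 6.29, 6.35, 8.05 and 7.97. Per kilobase of exon the regulators had the higher levels in control tissue, from 3.49 to 3.75 log2 RPKM in WT. Iigp1 stood at 1.48 there, and Tgtp1 and Tgtp2 had lower values, which may be too low because of their shared sequence. The changes of the regulators were the smaller ones, from 1.76 to 2.96 in WT and from 1.62 to 2.65 in KO. Those of the 3 effectors ran from 3.87 to 4.25 in WT and from 3.20 to 4.12 in KO. Per kilobase of exon, Igtp (6.45 log2 RPKM in WT colitis) and Irgm2 (6.02) stood above Iigp1 (5.74), and Irgm1 (5.51) below it. Igtp and Irgm2 share an exon stretch on the same strand, so reads there could be counted for either.

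The guanylate-binding proteins are larger GTPases that assemble on bacteria and on damaged vacuoles and promote inflammasome activation. All 10 were higher by 1 or more in both genotypes, with a median change of 2.44 in WT and 1.92 in KO. Gbp2 had the highest level of the family per kilobase of exon (6.96 log2 RPKM in WT colitis). In log2 RPM its means were 5.21 in WT control, 5.26 in KO control, 8.29 in WT colitis and 8.10 in KO colitis, that is 8.48-fold higher in WT and 7.20-fold higher in KO.

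Gbp5, which promotes assembly of the NLRP3 inflammasome, went from 2.95 log2 RPM to 5.85 in WT and from 2.91 to 5.29 in KO. Its change was 2.90 in WT and 2.37 in KO, although only the KO colitis table lists it. Gbp8 went from 1.82 to 4.42 in WT and from 1.63 to 3.87 in KO. Gbp10 was at background in WT control (−2.28 log2 RPM) and at −0.96 in KO control, and reached 1.11 in WT colitis and 0.96 in KO colitis, which was at least 7.29-fold higher in WT. Per kilobase of exon it is the lowest of the family in WT colitis. It shares 73.5% of its 100-base windows with other genes, among them Gbp6, which shares 64.5% of its own. Reads there may have been left out, so the levels of both genes may be too low.

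The other 6 guanylate-binding proteins had changes from 1.77 in Gbp9 to 2.48 in Gbp4 in WT, and from 1.29 in Gbp9 to 2.46 in Gbp3 in KO. The change was smaller in KO for 9 of the 10 members, with a median difference (KO minus WT) of −0.41. Gbp3 was the exception, with a change of 2.40 in WT and 2.46 in KO. Of all listed genes whose changes in WT and KO averaged 1 or more, 65.5% had the smaller change in KO, with a median difference of −0.18. The 6 matched promoters of this family belong to 5 genes, all of the chromosome 3 cluster. All 5 genes hold the ISRE core in a promoter and 2 the GAS core, and a further Gbp3 promoter holds neither. No gene of this family on chromosome 5 had a matched promoter.

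**Figure D3:**
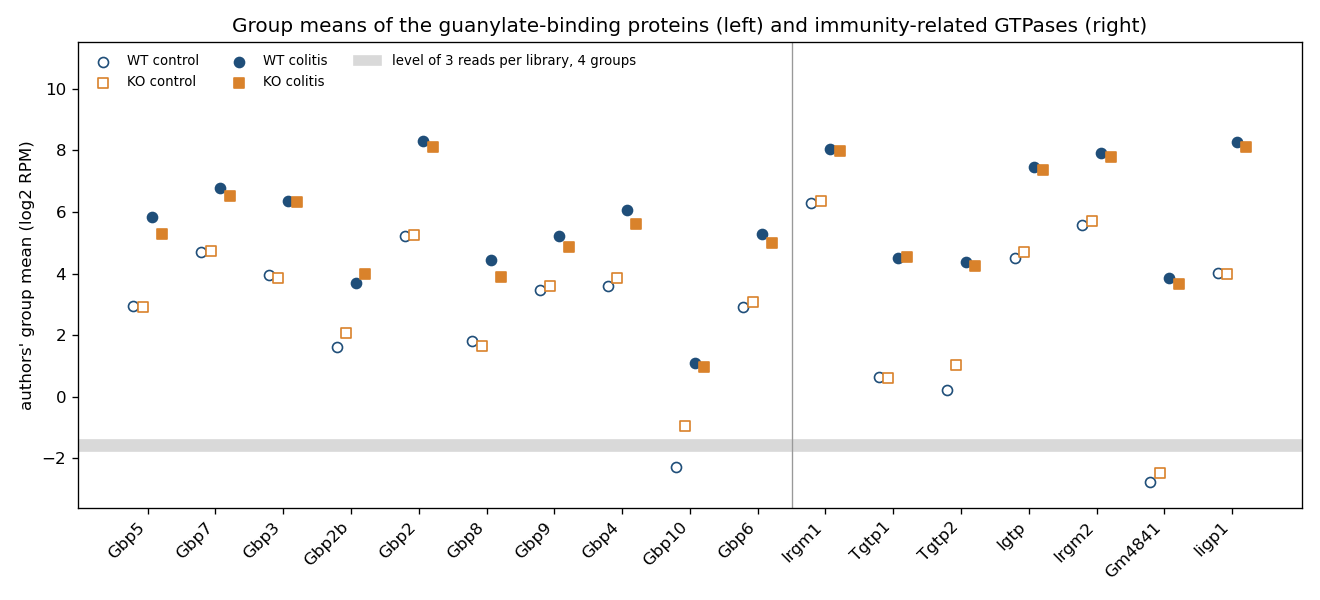
Authors' group means (log2 RPM, vertical axis) of the 17 GTPase genes in control tissue and in colitis of both genotypes, with 1 point per group, a grey band for the level of 3 reads per library and no error bars, since values of single libraries were not used. For each gene both colitis means lie above both control means, and the gap is widest for Gm4841, whose control means lie at background.

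The Ifit proteins bind viral RNA and block its translation. Ifit2 had the largest change of the family, from 4.04 log2 RPM to 7.36 in WT and from 4.18 to 7.30 in KO. Ifit3b, Ifit3 and Ifit1 were higher by 1.35 to 1.76 in WT and by 1.44 to 1.62 in KO, and Ifit1, whose promoter is shown above, went from 4.50 to 5.86 in WT and from 4.33 to 5.76 in KO. Ifit1bl1 was already at 8.57 in WT control and 8.62 in KO control and was higher by only 0.40 in WT and 0.67 in KO. The changes in the 2 genotypes lay close together in this family, with a median difference (KO minus WT) of −0.04.

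The Ifitm proteins sit in cell and endosome membranes, where Ifitm3 hinders the entry of enveloped viruses. Ifitm2 and Ifitm3 had high levels in every group, at 8.83 and 8.86 log2 RPKM in WT colitis, and their changes differed, with 0.40 for Ifitm2 and 1.56 for Ifitm3 in WT. Ifitm1 went from 3.68 log2 RPM to 6.53 in WT and from 3.86 to 5.91 in KO. Ifitm6 had the widest gap of all members between the colitis changes of the 2 genotypes. It was at −1.48 in WT control and −0.26 in KO control, and at 2.15 in WT colitis and 1.09 in KO colitis. These means gave changes of 3.63 (WT) and 1.34 (KO), but the WT control mean lay just above the 3-read level of −1.75. With 1 RPM added to each level before the log2, no member, Ifitm6 included, differed between genotypes by 1 or more in either state. The change was smaller in KO for all 4 Ifitm genes, against 50.6% of all listed genes by absolute size, with a median difference of −0.48. The difference was −0.04 in Ifitm2 and −0.14 in Ifitm3, against −0.81 in Ifitm1 and −2.29 in Ifitm6.

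The Oas enzymes respond to double-stranded RNA by making oligoadenylates that activate RNase L. This was the most divided family, with a median change of 0.57 in WT and 0.68 in KO. Oasl2 went from 5.81 log2 RPM to 7.31 in WT and reached 7.17 in KO, where its change was 1.67. Oas3 went from 3.66 to 5.23 in WT and from 3.52 to 5.06 in KO, although only the KO colitis table lists it. Oas2 stood at 2.72 log2 RPM in WT control, 2.11 in KO control, 4.32 in WT colitis and 3.78 in KO colitis. Oas1a, Oas1g and Oasl1, all above 5.5 log2 RPM in control tissue, were higher by only 0.24 to 0.57 in WT and by 0.33 to 0.68 in KO.

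Oas1d, known from oocytes, was the member that was lower by 1 or more. It was near the limit of detection, with control means of −0.35 log2 RPM in WT and −0.07 in KO, and was at background in both colitis groups (−2.05 and −2.42). Against the level of 3 reads it was at least 2.1-fold lower in WT colitis and at least 3.14-fold lower in KO colitis. Only the KO colitis table lists Oas1d. It lies in the cluster on chromosome 5 from 120730333 to 120921652, together with Oas1a, Oas1g, Oas2 and Oas3, all of which had positive changes.

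Among the sensors, Zbp1, which recognises left-handed double helices and can start necroptosis, stood apart. It went from 4.58 log2 RPM to 7.41 in WT and from 4.73 to 7.35 in KO. The RNA helicases were higher by less than 1, with changes in WT of 0.38 for Ifih1 (MDA5), 0.71 for Ddx58 (RIG-I) and 0.74 for Dhx58 (LGP2), and in KO of 0.33, 0.55 and 0.86. The antisense gene Dhx58os overlaps exons of Dhx58, with a change of 0.68 in WT and 0.92 in KO. Whether reads were counted by strand is not given in the sources used here, so reads in the overlap may belong to either gene.

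Of the single antiviral and ubiquitin-like genes, Isg15, a ubiquitin-like protein that is attached to other proteins, and Usp18, the protease that takes it off, had similar changes. Isg15 stood at 3.90 log2 RPM in WT control, 3.69 in KO control, 5.62 in WT colitis and 5.54 in KO colitis. Usp18 stood at 2.58, 2.33, 4.23 and 4.13 in the same order. Rtp4 and Xaf1 were higher by 1.35 and 1.16 in WT and by 1.52 and 1.14 in KO. Samhd1, which degrades deoxynucleotides, and Cmpk2, a mitochondrial nucleotide kinase, were higher by 0.89 and 0.70 in WT and by 0.77 and 0.69 in KO. Mx1, a dynamin-like GTPase, was higher by 0.80 in WT and 0.28 in KO, and only the WT colitis table lists it.

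The numbered Ifi genes are a mixed class. Ifi47, a further immunity-related GTPase despite its name, had the largest change, from 3.42 log2 RPM to 6.83 in WT and from 3.60 to 6.49 in KO. The 10 genes Ifi203 to Ifi209, Ifi211, Ifi213 and Ifi214 belong to the pyrin and HIN domain family. They lie in 1 cluster on chromosome 1 from 173468485 to 174031810. Ifi205 went from 1.32 to 3.77 in WT and from 0.97 to 3.21 in KO, Ifi206 from −0.77 to 1.65 in WT and from −0.40 to 1.54 in KO, and Ifi209 from 1.96 to 3.84 in WT and from 1.55 to 3.96 in KO. Ifi44 went from 1.93 to 4.15 in WT and from 1.79 to 4.14 in KO.

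Among the other Ifi genes, Ifi204 went from 2.36 log2 RPM to 4.45 in WT and from 2.16 to 3.85 in KO. Ifi30, a lysosomal thiol reductase of antigen processing, was at 7.20 log2 RPM in WT control and was higher by only 0.20 in WT and 0.27 in KO. Ifi214 was at background in both WT groups, for which no fold is given, and in KO control, and was at −0.65 in KO colitis, at least 2.08-fold above the 3-read level of KO control. In all, 11 of the 15 were higher by 1 or more in WT and 12 in KO. Ifi211 shares 56.9% of its 100-base windows with other genes, Ifi205 among them.

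The transcription factors of the pathway had smaller changes than the GTPases. The median change of the Irf genes was 0.80 (WT) and 0.78 (KO), and only Irf8, a factor of myeloid cells, passed 1, from 7.19 log2 RPM to 8.41 in WT and from 7.26 to 8.41 in KO. Irf1, which is induced by interferon gamma and whose GAS core is shown above, went from 8.35 to 9.26 in WT and from 8.33 to 9.10 in KO. Irf9, the DNA-binding partner of STAT2, was higher by 0.80 in WT and 0.79 in KO. None of the 7 matched Irf promoters, which belong to 4 genes, holds the ISRE core, and 2 hold the GAS core.

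The Stat genes had a median change of 1.45 in WT against 1.33 in KO. Stat4, which acts downstream of interleukin-12 in T and NK cells, was higher by 1.79 in WT and 1.70 in KO from a low level (0.96 log2 RPM in WT control). Stat2 was higher by 1.10 in WT and 0.96 in KO, and Stat3, the factor of interleukin-6 and interleukin-22 signalling, by 0.68 and 0.49. These 3 genes each had a slightly smaller change in KO, as did 50.6% of all listed genes by absolute size.

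The Schlafen genes encode proteins with roles in lymphocyte growth and RNA cleavage. Slfn1 had the largest change, from −0.63 log2 RPM to 3.28 in WT and from −1.21 to 2.37 in KO, although only the KO colitis table lists it. Slfn2, Slfn5 and Slfn8 were higher by 1.24 to 1.82 in WT and by 1.21 to 1.75 in KO. The antisense gene Slfn5os, which overlaps Slfn5 exons, was higher by 1.03 in WT and 0.90 in KO.

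The Parp family had the smallest changes among the groups with positive members only, with a median of 0.63 in WT and 0.44 in KO. Parp14, a mono-ADP-ribosyltransferase, and Parp9, its partner without catalytic activity of its own, were the highest, with changes of 1.25 and 1.10 in WT and 1.03 and 1.04 in KO. Parp14 went from 6.80 log2 RPM to 8.04 in WT and from 6.79 to 7.82 in KO. The other 5 members were higher by 0.33 to 0.77 in WT and by 0.35 to 0.52 in KO.

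Changes were also grouped by the letters in the promoter, among the 59 members with a matched promoter. The 9 members with both cores had median changes of 2.33 (WT) and 2.06 (KO), and the 26 with the ISRE core alone had 1.57 and 1.58. The 6 with the GAS core alone had 1.06 and 0.96, and the 18 with neither had 0.91 and 0.84. The classes overlapped widely, from 0.52 in Parp11 to 4.13 in Tgtp2 among members with both cores in WT, and up to 3.91 in Slfn1 among members with neither. This is a description of these windows, since 4 of the 9 members with both cores are immunity-related GTPases with near-identical stretches.

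The second question was whether the set differed between KO and WT. In control tissue the median difference (KO minus WT) was 0.03, with 44 members above 0 and 37 (45.7%) below, against 49.0% below over all listed genes. KO was higher by 1 or more for 2 members, Gbp10 and Ifitm6, against 1.01% of all listed genes, and lower by 1 or more for none, against 0.638%. Gbp10 was at background in WT control, and its KO level was at least 1.73-fold above the 3-read level, which is under the limit of 1 on the log2 scale. Ifitm6 was higher by 1.22, from a WT control mean just above background. Oas2 had the lowest difference, −0.61. The deposited table of KO against WT in control lists none of the members, and it holds only 0.89% of all listed genes.

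In colitis the median difference was −0.09, with 22 members above 0 and 59 (72.8%) below, against 52.6% below over all listed genes. KO was higher by 1 or more for 1 member, Ifi214, against 1.41% of all listed genes, and its level was at least 1.71-fold above the 3-read level of WT colitis, where it was at background. KO was lower by 1 or more for 1 member, Ifitm6, with −1.07, against 2.69% of all listed genes. Slfn1 followed with −0.91. The Ifi genes of the chromosome 1 cluster differed among themselves, with values from −0.75 in Ifi213 to 0.30 in Ifi208 when Ifi214 is left out. The table of KO against WT in colitis also lists none of the members and holds 1.08% of all listed genes.

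**Figure D4:**
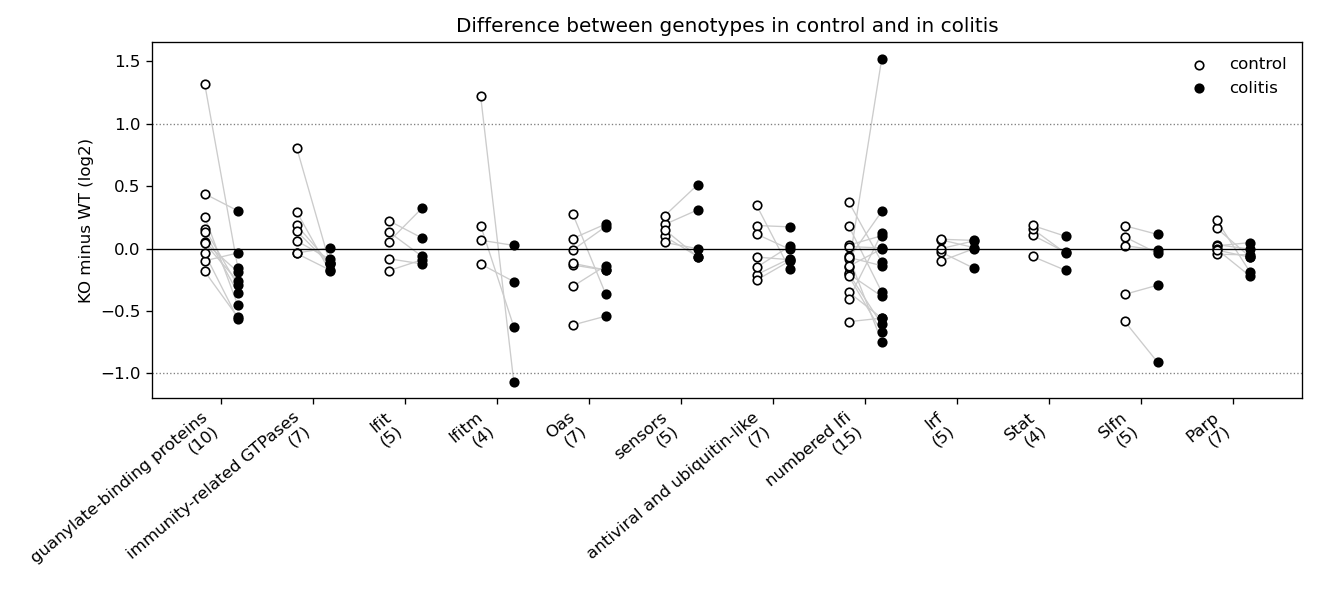
Difference between KO and WT (log2, KO minus WT) of each member in control tissue and in colitis, by role group (horizontal axis), with open points for control, filled points for colitis, a line joining each gene and dotted lines at 1 and −1. Ifitm6 is above 1 in control tissue, where its WT mean lies just above background, and below −1 in colitis. Gbp10 in control and Ifi214 in colitis, the other points above 1, rest on a WT mean at background.

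The size of the colitis change was then set side by side in the 2 genotypes. For 69 of the 81 members (85.2%) the changes in KO and WT lay within 0.5 of each other, as for 81.4% of all listed genes. The change was smaller in absolute size in KO for 58 members (71.6%), against 50.6% of all listed genes, and the median difference was −0.11, against −0.02 over all listed genes. Genes with large rises differ from the rest in this respect, so the members were also read against genes with a rise of like size. Of the 54 members whose changes in WT and KO averaged 1 or more, 40 (74.1%) had the smaller change in KO, with a median difference of −0.14. Among all 888 listed genes with such a rise, members included, 65.5% had the smaller change in KO, with a median difference of −0.18. Most genes with a rise of that size thus had the smaller rise in KO, in the set and over all listed genes. The difference between these shares was not tested, and genes with large falls were not read in this way.

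The members with the widest gap between the changes were Ifitm6 (−2.29), Ifi214, whose means lie at background in 3 of the 4 groups, Gbp10 (−1.47, or changes of 2.87 in WT and 1.92 in KO with its background mean raised to 3 reads) and Tgtp2 (−0.92). Ifitm6, Gbp10 and Tgtp2 all have a control mean that was low and higher in KO. Ifit, Irf and the antiviral and ubiquitin-like genes had median differences between −0.04 and −0.01. The Oas genes had a median difference of 0.07, and the change was smaller in absolute size in KO for 2 of 7, against 50.6% of all listed genes. The order among role groups rests on 4 to 15 genes each and on means without a spread.

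**Figure D5:**
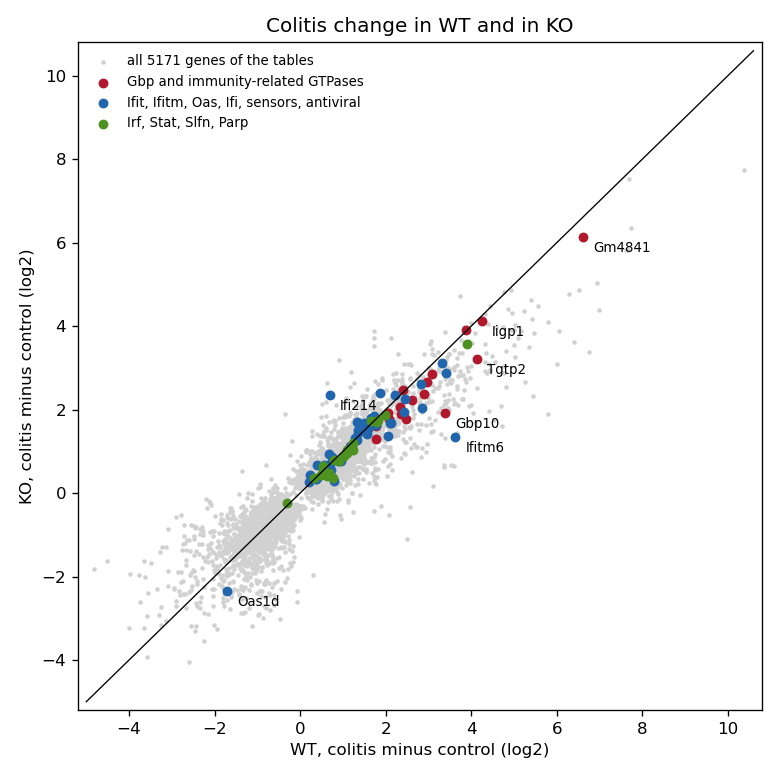
Change in colitis against control in KO (log2, vertical axis) against the same in WT (horizontal axis), with 1 point per member, coloured by role, over all listed genes in grey and with the line of equal change. Members run along the line from Oas1d, the lowest, to Gm4841, the highest, and Ifitm6 lies far below it.

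Other genes of the pathway were read from lists of textbook genes outside the name pattern. Of 35 genes for interferons, their receptors, signalling parts and inducing cytokines, 15 were in the tables. Their changes were positive in both genotypes, with a median of 1.11 in WT and 1.02 in KO. Over all listed genes, 46.0% of changes in WT and 45.7% in KO lay below 0. The changes of the 15 were 1 or more for 10 in WT and 9 in KO, against 18.4% and 15.9% of all listed genes. Genes of the list could be read only if they had passed the authors' threshold in at least 1 comparison. Ifng, which encodes interferon gamma, was the only interferon gene of the list in the tables. It was at background in both control groups and at 1.33 log2 RPM in WT colitis and −0.04 in KO colitis. These levels were at least 8.49-fold and 3.17-fold above the 3-read level of control. The KO mean was lower by 1.37 in colitis, but Ifng is not among the genes the authors listed for that comparison.

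Socs3 and Socs1, which encode feedback inhibitors of Janus kinases, were higher by 3.43 and 2.18 in WT and by 2.62 and 2.23 in KO. Il12b, a subunit of interleukin-12 and interleukin-23, was at background in control and at 0.93 log2 RPM in WT colitis and 1.20 in KO colitis. Its receptor subunit Il12rb1 was higher by 3.36 in WT and 2.34 in KO. Ifnar2, a subunit of the type I interferon receptor, was higher by 1.03 in WT and 0.79 in KO, and the kinase Jak2 by 0.30 and 0.24.

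Of 29 further interferon targets, 25 were in the tables and all had positive changes in both genotypes, with a median of 1.19 in WT and 1.07 in KO. The changes were 1 or more for 16 in WT and 15 in KO, against 18.4% and 15.9% of all listed genes. Here too, only genes that had passed the authors' threshold in a comparison could be read. The chemokines that attract T cells were among the largest, with Cxcl9 going from 0.93 log2 RPM to 6.34 in WT and from 1.22 to 5.85 in KO. Cxcl10 reached 5.63 log2 RPM in WT colitis and 4.61 in KO colitis, and its change was 4.13 in WT and 2.53 in KO. It is not among the genes the authors listed for KO against WT in colitis.

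Ido1, which degrades tryptophan, and Nos2, the inducible nitric oxide synthase, were higher by 4.95 and 4.44 in WT and by 4.32 and 4.48 in KO. The genes of antigen presentation on MHC class I in the list had changes in WT of 3.09 for the regulator Nlrc5, 2.55 and 1.06 for the peptide transporter subunits Tap1 and Tap2, 2.53 and 2.29 for the immunoproteasome subunits Psmb8 and Psmb9 and 1.49 for B2m. In KO the same genes had changes of 2.60, 2.23, 1.01, 2.43, 2.19 and 1.44. The RNA-binding enzymes Adar and Eif2ak2 were higher by 0.33 and 0.49 in WT and by 0.33 and 0.43 in KO, near the RNA helicases of the member set.

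Markers of cell types in the colon also differed between the states. The 3 pan-leukocyte markers summed to 154 RPM in WT control, 151 in KO control, 383 in WT colitis and 411 in KO colitis. The 10 of 12 monocyte and macrophage markers in the tables summed to 890, 945, 2160 and 2116 RPM in the same order, with a median change of 1.31 in WT and 1.04 in KO. The 12 T and NK cell markers summed to 22.0, 21.6, 96.7 and 92.2 RPM, with a median change of 2.50 in WT and 2.57 in KO. All these sums were higher in both colitis groups than in either control group, and their part in the members' changes was not tested.

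The 8 neutrophil markers summed to 102 RPM in WT control, 109 in KO control, 418 in WT colitis and 297 in KO colitis. Ly6g alone gave 92.0, 98.2, 207 and 236 RPM of these sums, and the other 7 markers, a selection made after seeing the data, summed to 9.91, 11.2, 211 and 60.7 RPM. The 8 markers had a median change of 4.62 in WT against 2.99 in KO, and S100a8, Cxcr2 and Mmp8 were at background in both control groups. Apart from Ly6g, the levels of this list in colitis were lower in KO. None of the 8 markers is among the genes the authors listed for KO against WT in colitis. The part of this list in the members' values was not tested. Of the 12 epithelial markers only Car1, Car4 and Aqp8 were in the tables, all at or above 9.36 log2 RPM in every group, so markers of the labelled tissue were present. They summed to 6857 RPM in WT control, 6606 in KO control, 3597 in WT colitis and 3235 in KO colitis. The other epithelial markers passed the authors' threshold in no comparison and could not be read, so these sums do not stand for the epithelium as a whole. Of the endothelial markers, 2 of 5 were in the tables, with sums of 88.9 RPM in WT and 87.7 in KO for control tissue and of 117.9 and 86.1 for colitis. The only B and plasma cell marker of 6 in the tables, Cd79b, stood at 3.21 log2 RPM (WT) and 3.42 (KO) in control tissue and at 3.44 and 4.35 in colitis. The 2 of 6 smooth muscle markers in the tables summed to 3619 RPM (WT) and 3358 (KO) in control tissue and to 2345 and 2316 in colitis.

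The members lie in gene clusters. With neighbours no more than 500 kb apart, 9 clusters of 3 or more members held 46 of the 81 members. The 10 guanylate-binding protein genes form 2 clusters of 5, on chromosome 3 from 142493978 to 142638008 and on chromosome 5 from 105014150 to 105293698 (coordinates of the deposited tables, GRCm38). Changes in WT ran from 2.06 to 3.08 in the first and from 1.77 to 3.39 in the other. Irgm1, Tgtp1, Tgtp2 and Ifi47 share a cluster on chromosome 11 from 48861968 to 49096974, with changes in WT from 1.76 to 4.13, and the 5 Ifit genes lie on chromosome 19 from 34550694 to 34650009, with changes from 0.40 to 3.32. Neighbours of 1 gene family in a cluster are related genes, and some share sequence, so they are not independent observations of the response.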

How the data were processed

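RNA-seq of whole colon from 16 mouse libraries was used, grouped by sample title. The authors mapped reads to GRCm38 with HISAT2 2.1.0, kept unique reads, removed reads over annotated ribosomal RNA because of contamination in some samples, counted reads over exons in SeqMonk and tested 2 groups at a time with DESeq2. The 4 deposited tables hold the genes with an adjusted p-value under 0.05 in a comparison, so the background here is not all expressed genes. The deposited log2 values are the authors' group means of log2 RPM. The deposited adjusted p-value column was the authors' own result and was not used, and membership of a table is given as a fact of the file.

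The same means stood in every table that lists a gene. Changes were differences of means, and lists are described by counts and medians without a test. The steps of the lowest means gave the library sizes and showed that 0 counts had been set to 0.9 read. Folds against means at or under 3 reads per library are lower bounds, none is given where both were, and such limits cover counting error only. Changes of 1 or more were counted, leaving out genes with both means at or under 3 reads. Shared windows of 100 bases and exon overlaps came from GENCODE M21, and promoters from RefSeq on GRCm38.p6. Members, roles and lists were chosen with earlier results of these data known. For each role the 4 largest changes were named and others given by range, with a few more named after their values were seen. Alternatives changed the zero handling, a filter, the limit and the members kept. Python 3.11.15, pandas 2.3.3 and numpy 2.4.6 were used, and the counting was tested on simulated data. Some members are counted in the totals but their single values are not reported here.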

Additional observations from a re-analysis of the deposited data

How the results depend on the processing

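None of these results has a test, so an alternative could only move a value, and a median counted as moved at 0.2 log2 and a count at 1.5-fold. No paired analysis was possible because only group means were used, and leaving out single libraries could not be run for the same reason. Of 97 alternative values of the counts and medians over the set, 73 stayed within those limits, 24 moved and 0 reversed, and of 1044 for single members and role groups, 975 stayed, 69 moved and 0 reversed. With a limit of 2 on the log2 scale, 27 members were higher in WT colitis (54 with a limit of 1) and 19 in KO colitis (53). Under log2(RPM + 1) the median change in KO was 1.22 (1.52). Without members that share over 50% of their 100-base windows, an alternative chosen after seeing the data, the median change in WT was 1.35 (1.56). Oas1d ceased to count as lower under log2(RPM + 1) and with a mean of at least 1 log2 RPM, which left 0 in WT and 0 in KO, and in WT also with genes of that table only or a limit of 2 (0 each). Between genotypes in control tissue, 1 member was higher in KO with low means raised to 3 reads, and 0 under log2(RPM + 1), the filter or a limit of 2 (2), and 3 were lower with a limit of 0.5 (0). In colitis, 0 were higher in KO under the same 4 settings and 2 with a limit of 0.5 (1), and 0 were lower under log2(RPM + 1), the filter or a limit of 2 and 11 with a limit of 0.5 (1). Genes of the KO against WT tables only gave no value, since neither lists a member. Depth limits Gbp10, Gm4841, Ifi214 and Oas1d, each with a mean at or under 3 reads. It also bears on Ifitm6, whose WT control mean lay just above that level.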
